A study of Populus ussuriensis with 9 samples.

Results

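The loci described here are the 99, out of 29764 in the expression table of Populus ussuriensis leaves, that had no read in wild type (WT), averaged at least 1 FPKM in the transgenic line OE18, and averaged less than 1 FPKM in the transgenic line OE14. FPKM counts sequenced fragments per unit of gene length and of library size, so it can be compared between genes of different length. The members were chosen from these same values, so their low levels in OE14 and WT and their higher level in OE18 are given as a description. Test calls on them are given at the end and again under other settings, and nothing is read from those.

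Leaf RNA was sequenced from OE18, which overexpresses LbDREB6 at a high level, from OE14, which overexpresses it at a moderate level, and from WT, with 3 libraries per genotype, described as biological replicates. All plants were 6 months old, grew in a greenhouse and had water withheld, for 2 weeks by the sample descriptions and for 1 week by the treatment protocol. No watered plants were analysed here, so OE18, OE14 and WT all carry the drought treatment. Each level of overexpression is represented by 1 line, so level and line cannot be told apart, and the promoter that drives the transgene is not given in the sources used here. The 3 columns used as WT are headed with a C and a number and were matched to WT by elimination. The level of LbDREB6 itself was not analysed here.

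DREB proteins are plant transcription factors that bind the dehydration-responsive element, a short motif in the promoters of many genes that respond to drought, salt or cold. Overexpressing such a factor is a common way to raise the activity of its target genes in plants. A locus without reads in a whole leaf may be silent in every cell, or transcribed in few cells or at a level below the depth of sequencing, and in bulk leaf RNA fewer cells and less RNA per cell cannot be told apart. The files do not give gene names for the locus IDs, so no function is stated for any member, the leaf identity of the samples was not checked against marker genes, and the IDs of 2 members are printed.

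Whole reads, lengths and library totals could be recovered from the FPKM values, where the length and reads of a locus may come out too small if they share a common factor. The totals ran from 10988010 to 13653249 reads in OE18, from 11707298 to 16221919 in OE14, and from 11324024 to 13389816 in WT. Summed over the 3 libraries, the depth was 38082557 reads in OE18, 42764202 in OE14 and 36312808 in WT. OE14 was therefore the most deeply sequenced genotype, and OE18 and WT were close to each other. Absence of reads in WT was expressed as an upper limit of 3 reads over the 3 WT libraries, which covers counting error only. A fold given as "at least" divides the OE18 value as measured by such a limit and leaves out counting error in OE18. Every locus of the table had a read in at least 1 library.

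The members were mostly weakly expressed in OE18. Their mean FPKM in OE18 ranged from 1.01 to 49.3, with a median of 2.12, against a median of 8.93 FPKM for the 21979 loci of the table that averaged at least 1 FPKM in OE18. There were 47 members between 1 and 2 FPKM, 35 between 2 and 5, 12 between 5 and 10, and 5 at 10 FPKM or more. The strongest member ranked 1961 among all 29764 loci in OE18 and the median member ranked 19492. Together the members summed to 390, 387 and 378 FPKM in the 3 OE18 libraries, 0.0693%, 0.0699% and 0.0673% of the FPKM of all loci. In the OE14 libraries they summed to 7.56, 8.75 and 7.81 FPKM, and in the WT libraries to 0 by the rule.

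**Figure D1:**
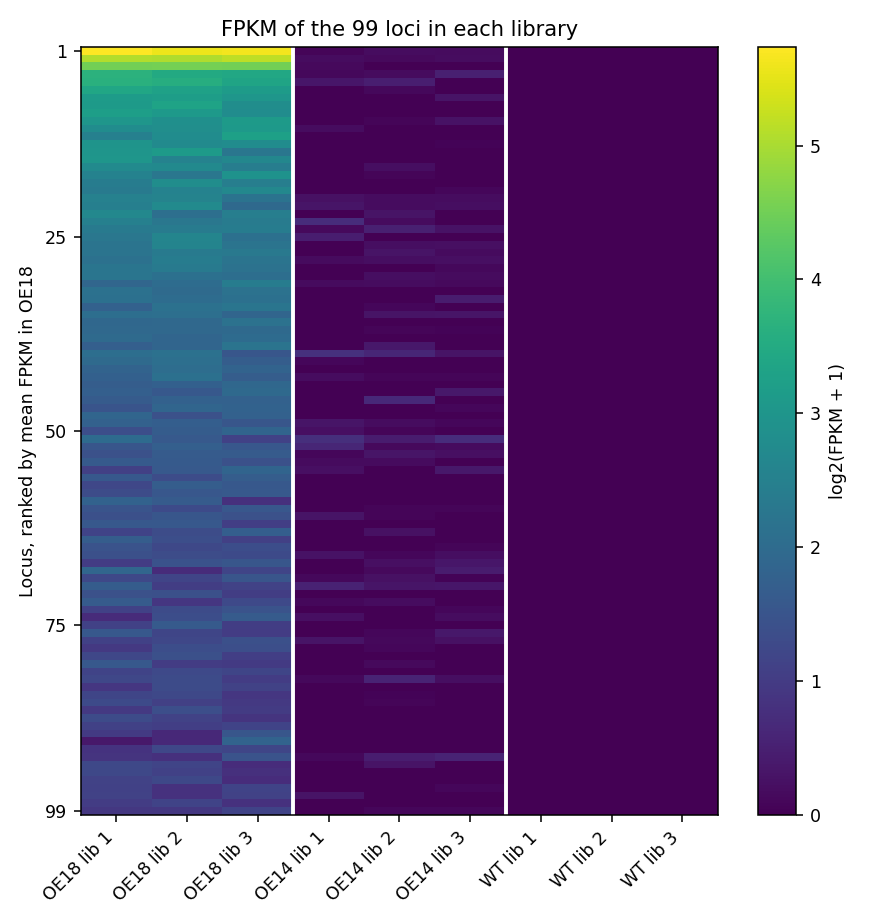
Each row is 1 of the 99 loci, ranked by mean FPKM in OE18 from the highest at the top, and each column is 1 library of OE18, OE14 or WT; colour gives log2(FPKM + 1). All 99 rows carry signal in all 3 OE18 libraries, OE14 holds scattered low values with none above 0.740 FPKM, and the WT columns are at 0 by the rule.

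The strongest member was Potri.003G076900.v3.0, on chromosome 3 by its ID. It had 52.3, 47.4 and 48.4 FPKM in OE18, 0.0505, 0.146 and 0.120 FPKM in OE14, and 0 in each WT library. The OE18 values lay close together and far above all OE14 values. They rest on 3178 reads over OE18 and 8 reads over OE14. Its mean was 49.3 ± 2.6 FPKM in OE18 and 0.105 ± 0.049 FPKM in OE14 (SD, n = 3 each), a pooled ratio of 446. With 3 reads as the limit in WT, its level was at least 1010-fold higher in OE18.

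Second was Potri.015G057300.v3.0, on chromosome 15. It had 32.5, 32.3 and 35.0 FPKM in OE18, 0.148, 0.107 and 0.146 FPKM in OE14, and 0 in WT. Here too all OE14 libraries held a few reads, 13 in all, against 2918 in OE18. Its mean was 33.2 ± 1.5 FPKM in OE18 and 0.133 ± 0.023 FPKM in OE14 (SD, n = 3 each), a pooled ratio of 252, and OE18 exceeded WT at least 927-fold. These 2 loci held 21.4% of the members' summed mean FPKM in OE18.

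The third member, a locus of 774 bases on chromosome 3, was the most even of all. It had 22.0, 22.1 and 21.8 FPKM in OE18, and 0.110, 0 and 0 FPKM in OE14, where it had a single read. Its OE18 mean was 728 times that of OE14 in pooled reads, the highest such ratio among the 68 members with reads in both lines. The next 2 members lay between 10 and 11 FPKM in OE18. One, of 983 bases on chromosome 16, had 12.0, 10.2 and 9.81 FPKM in OE18 and 0.0869, 0.125 and 0.411 FPKM in OE14. The other, of 945 bases on chromosome 4, had 11.5, 10.9 and 9.15 FPKM in OE18 and 0.271, 0.391 and 0 FPKM in OE14. For both, every OE18 value was more than 20 times every OE14 value.

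Among the members without a read in OE14, the strongest was a locus of 1111 bases on chromosome 2. It had 7.70, 9.03 and 6.06 FPKM in OE18 and 0 in all OE14 and WT libraries. Its 326 OE18 reads put it at least 122-fold above the limit of 3 reads in OE14 and at least 104-fold above that in WT. Next was a locus of 353 bases on chromosome 16 with 8.22, 7.47 and 5.93 FPKM in OE18. It had 98 reads in OE18, which allow at least 36.7-fold over OE14 and at least 31.1-fold over WT. The third was a locus of 321 bases on chromosome 5, with 4.64, 5.93 and 8.51 FPKM in OE18 and a bound of 28.4-fold over OE14 and 24.2-fold over WT.

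How far a member can be said to exceed WT depended on its reads. Summed OE18 reads ranged from 10 to 3178 with a median of 87, and 41 members had 100 reads or more while 30 had 50 or fewer. The lower bound of the fold over WT ranged from 3.18 to 1010 with a median of 27.7. It was at least 10-fold for 88 members and at least 100-fold for 12. The bounds are set by depth and length as well as by the level in OE18. The limit is meant for a single locus, whereas the members were chosen from all loci for having no WT read. Some of them may therefore lie above it in WT, and the bounds need not hold for every member.

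All 99 members had reads in all 3 OE18 libraries. In 77 members every OE18 library was at 1 FPKM or more, in 17 members 2 libraries were, and in 5 members 1 library was. The ratio of the highest to the lowest OE18 library had a median of 1.48 and ran from 1.02 to 8.56. The widest spread was that of a locus of 250 bases on chromosome 19, with 0.298, 0.586 and 2.55 FPKM in OE18 from 10 reads. The next widest, a locus of 579 bases on chromosome 9, had 2.70, 0.632 and 1.26 FPKM. Both had few reads, and in the second the first library was far above the others.

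The spread between OE18 libraries was set beside that of other loci. The median coefficient of variation over OE18 was 19.6% among the members and 8.08% among the 19897 other loci in the same range of OE18 means, which have more reads. Among loci with 43.5 to 155 summed OE18 reads, the middle 50% of the members, it was 19.2% in 49 members and 19.2% in 3610 other loci. The median chi-square of reads over the 3 OE18 libraries was 2.2 in these members and 2.1 in these other loci, where counting noise gives 1.39. The spread of the members between OE18 libraries was thus close to that of other loci within the same range of reads, where reads were not matched further. Library 3 of OE18 was the lowest for 40 members, library 1 for 33 and library 2 for 26, shares of 40.4%, 33.3% and 26.3% against 37.2%, 35.4% and 27.4% in the other loci of the same OE18 range.

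The rule caps the OE14 mean at 1 FPKM, but nearly all members lay far below that cap. The OE14 mean ranged from 0 to 0.576 FPKM with a median of 0.0368, and 67 members were under 0.1 FPKM. No member reached 1 FPKM in any OE14 library, and in all 99 the lowest OE18 library was above the highest OE14 library. The rule favours this separation by its thresholds. Reads were present in all 3 OE14 libraries for 20 members, in 2 for 20, in 1 for 28 and in none for 31. The 99 members had 344 reads over OE14 and 18204 over OE18.

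Where OE14 reads were present, they were few. In 16 members the OE14 signal was 1 read, and 11 members had 10 or more, up to 18. For the 68 members with OE14 reads, the OE14 mean was 0.167% to 28.3% of the OE18 mean, with a median of 3.46%. The median OE18 mean was 1.69 FPKM in members without an OE14 read, 2.83 in those with reads in 1 library, 1.93 with reads in 2 and 2.43 with reads in 3. Of the 10 strongest members 8 had a read in OE14. The OE18 level was thus not ordered by the number of OE14 libraries with reads, and the OE14 counts are too small to rank most members.

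**Figure D2:**
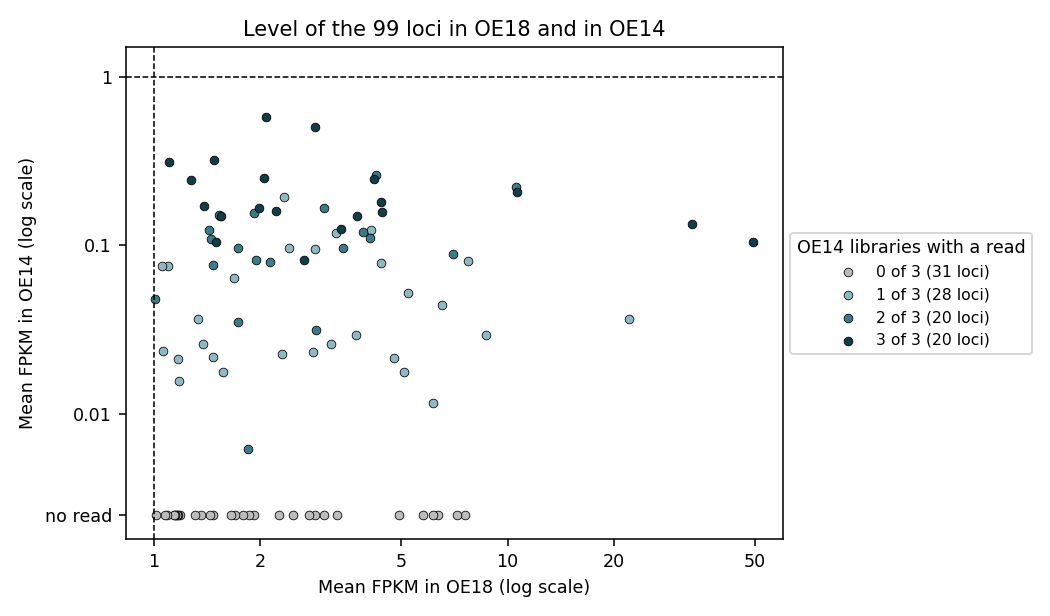
Points are the 99 loci, placed by mean FPKM in OE18 (horizontal) and in OE14 (vertical), both on log scales, with loci without an OE14 read in a row at the bottom; shade gives the number of OE14 libraries with a read and the dashed lines mark 1 FPKM. The points below 10 FPKM in OE18 spread over the whole OE14 axis, the 5 above it all have OE14 reads, and the highest OE14 mean is 0.576 FPKM.

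The WT condition of the rule is strict, and the OE14 condition is not, so the roles of OE14 and WT were exchanged for comparison. Under that exchange 53 loci had no read in OE14, averaged at least 1 FPKM in OE18 and averaged less than 1 in WT. Of these, 22 had a read in WT (41.5%), whereas 68 of the 99 members had a read in OE14 (68.7%). Loci at any OE18 level also differed this way. Of all 1536 loci without a WT read 915 had a read in OE14, and of all 1234 without an OE14 read 613 had 1 in WT. The direction of the difference is therefore not particular to the members. As a share, the difference was smaller over all these loci, which include the members and the exchanged set. The 2 sets share 31 loci, 31.3% of the members and 58.5% of the exchanged set. OE14 was sequenced more deeply than WT, and the part of depth in these shares was not tested.

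Loci that were silent in one genotype and on in another were counted in every direction. Of 1536 loci without a read in WT, 101 reached a mean of 1 FPKM in OE18 and 3 did so in OE14. Of the 1234 loci without a read in OE14, 57 reached it in OE18 and 16 in WT. Of the 971 loci without a read in OE18, 15 reached it in OE14 and 27 in WT. OE18 was thus the genotype with the most such gains and the fewest loci without reads, and its summed depth was above that of WT and below that of OE14. Just 2 of the 101 loci were above the OE14 cap, which leaves the 99 members.

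Values near the thresholds show how the rule cut the distribution. The 3 members with the lowest OE18 means had 1.05, 1.01 and 1.01 FPKM, and the 3 loci just outside had 0.991, 0.989 and 0.984. A further 78 loci without WT reads and with an OE14 mean below 1 FPKM had OE18 means between 0.5 and 1 FPKM. At the OE14 cap there was a gap. The members with the highest OE14 means, both on chromosome 2, had 0.576 and 0.503 FPKM, and the 2 loci just outside had 1.30 and 1.45. The first of these, on chromosome 16, had 3.66, 4.47 and 3.15 FPKM in OE18 and 1.63, 0.786 and 1.47 in OE14, and the other, on chromosome 1, had 1.44, 1.70 and 0.703 in OE18 and 1.65, 1.67 and 1.04 in OE14.

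The WT threshold, in contrast, cut through a continuous series. Among loci without a WT read, 6.45% passed the OE18 and OE14 conditions. The share was 7.38% at 1 WT read, 9.46% at 2, 13.0% at 3, 16.9% at 5 and 25% at 10 reads over the 3 WT libraries. In all, 545 of the 3895 loci with 1 to 10 WT reads passed both conditions. Their OE18 levels were like those of the members, with medians from 2.11 to 3.23 FPKM at 1 to 10 WT reads against 2.12 FPKM in the members. The highest among them, 97.4 FPKM in OE18 with 2 WT reads, lay above every member.

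**Figure D3:**
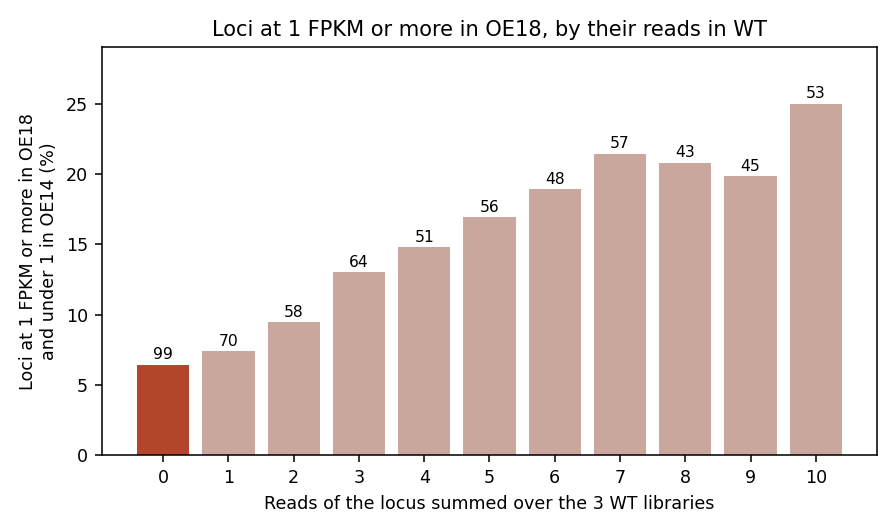
Bars give the share of loci averaging at least 1 FPKM in OE18 and less than 1 in OE14, by the locus's reads summed over the 3 WT libraries, and the number above each bar counts those loci; the dark bar at 0 is the 99 members. The share was 6.45% at 0 WT reads and 25% at 10.

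The members were short. Their median length, recovered from the FPKM values, was 912 bases, against 1725 for all loci and 1868 for loci at 1 FPKM or more in OE18. Of the members 62 (62.6%) were 1000 bases or shorter, against 18.4% of all loci. The 1437 other loci without a WT read were also short, though less often than the members, with a median of 991 bases and 50.5% at 1000 bases or shorter. A recovered length can come out too small, more easily where fewer libraries hold reads, as in all loci without WT reads. Short loci collect fewer reads at a given FPKM, so the absence of WT reads is a weaker limit for them, and no test of length was made. A few members were long: 10 exceeded 2000 bases, the longest with 7960.

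Positions were read from the locus IDs and are those of the reference genome behind them. Its build is not given in the sources used here, so positions in Populus ussuriensis itself may differ. By the IDs, 93 members lay on chromosomes and 6 on no chromosome, and every one of the 19 chromosomes held at least 1. Chromosome 2 held the most, 10. As a share of the chromosome's loci in the table, members were most frequent on chromosome 19 (7 of 858, 0.816%) and chromosome 16 (8 of 1044, 0.766%). They were least frequent on chromosome 8 (1 of 1736, 0.0576%) and chromosome 1 (3 of 3410, 0.0880%). Chromosome 19 also held many loci without WT reads, 8.86% of its loci, and among these the members' share was 9.21%. The share of WT-silent loci that were members was highest on chromosome 16 (13.1%) and lowest on chromosomes 1 (1.54%) and 8 (1.67%). The counts are small and the differences between chromosomes were not tested.

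**Figure D4:**
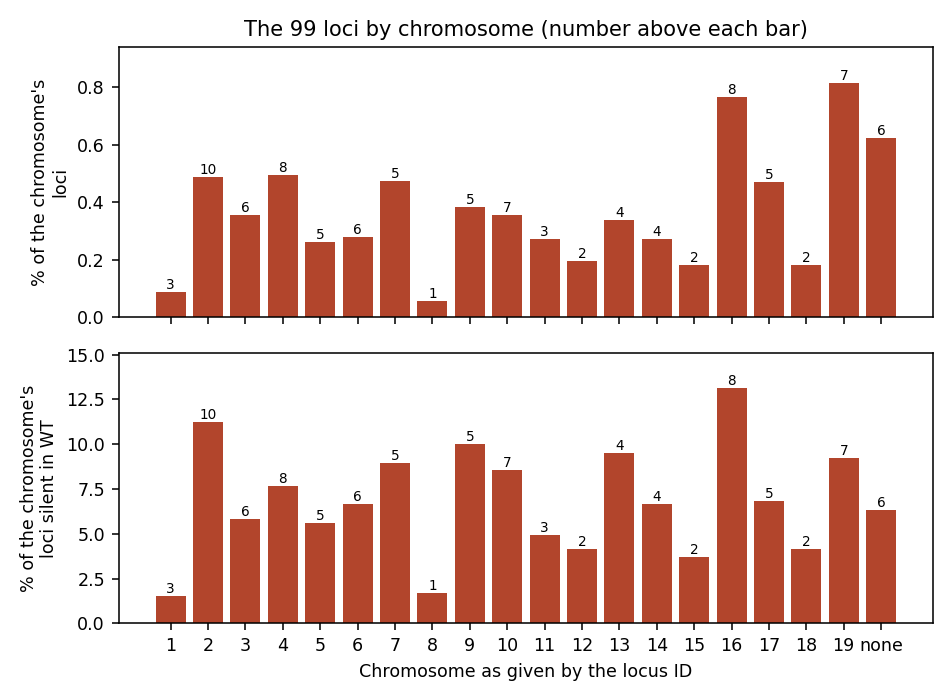
Bars give the 99 loci of each chromosome as a percentage of all its loci in the table (top) and of its loci without a read in WT (bottom), with the number of members above each bar; "none" stands for loci that the ID places on no chromosome. Chromosomes 16 and 19 are highest in the top panel, and chromosomes 1 and 8 are lowest in both.

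Some members lay next to each other. In the order of the locus numbers 6 pairs of members lay within 5 loci of each other, involving 11 members, and 4 of the pairs were adjacent in the table. No matching count for other loci is given, so whether members lie together more often than these is not known. On chromosome 4, a locus with 10.5 FPKM in OE18 lay 5 places from a member with 2.33 FPKM, which was itself adjacent to a member with 3.26 FPKM. Adjacent members had 7.6 and 2.05 FPKM in OE18 on chromosome 2, and 3.03 and 1.36 FPKM on chromosome 16. In each of these 2 pairs, 1 member had no OE14 read and the other had some, 11 reads on chromosome 2 and 4 on chromosome 16. The pair on no chromosome, adjacent by its ID numbers only, was formed by the 2 longest members, of 3932 and 7960 bases, with 2.74 and 1.84 FPKM in OE18. How the authors' counting treated reads shared between similar neighbouring genes is not given in the sources used here, so the values of adjacent members may not be independent.

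The loci around the members were not part of the rule and were tested. For each member on a chromosome, the nearest tested non-member on either side was taken, which gave 178 loci, at most 7 places away. In OE18 against WT, limma called 145 of them at an adjusted p under 0.05, 79 higher and 66 lower in OE18. That is 44.4% higher and 37.1% lower, and the background over all 22848 tested genes was 41.6% higher and 37.9% lower. The neighbours' shares of calls were near this background, and calls went in both directions. Quantile normalization turned the counts to 70 higher and 78 lower, and the background under it is not given here. Their median log2 fold change was 0.10, with quartiles at -0.48 and 1.01, against 0.03 with quartiles at -0.50 and 0.73 over all tested genes. A rise of 2-fold or more on the log2(FPKM + 1) scale was seen in 45 neighbours (25.3%) and in 18.8% of all tested genes, and a fall of that size in 18 (10.1%) and 9.34%. Tested loci needed 1 FPKM or more in 3 of the 9 libraries, which OE18 alone can supply, so the filter favours rises among loci weak in WT. The neighbours were weaker in WT, with a median mean of 5.94 FPKM against 7.64 for all tested genes. The part of the filter in the share of rises was not tested. At distances of 1 to 10 loci on either side the median lay between -0.14 and 0.48, with 59 to 79 tested loci at each distance. Most of these medians were above that of all tested genes, and this lean was not tested.

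**Figure D5:**
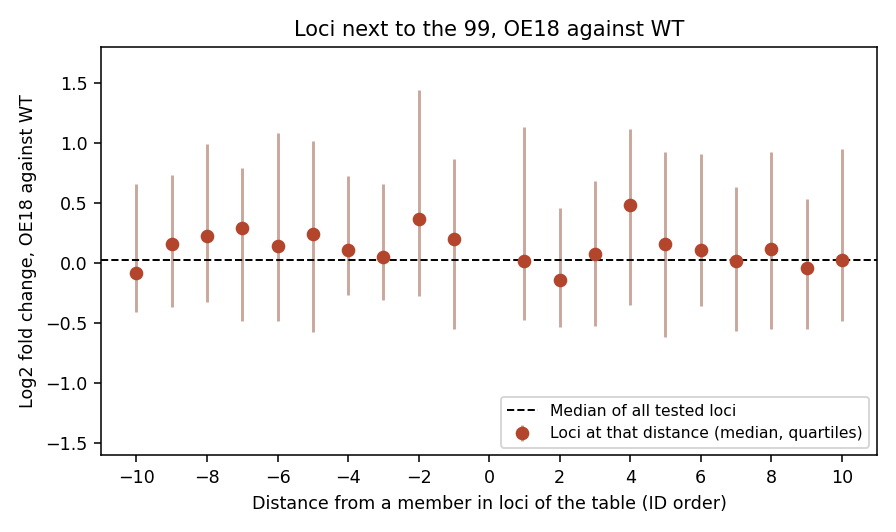
Points give the median log2 fold change of OE18 against WT for tested non-member loci at each distance from a member, counted in loci of the table, with bars from the lower to the upper quartile; the dashed line is the median of all tested genes, 0.03. The medians lie between -0.14 and 0.48, most of them above the dashed line. The range between the quartiles includes the dashed line at every distance.

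Loci directly beside a member were often weakly expressed themselves. Of 180 adjacent non-member loci, tested or not, 27 had no read in WT (15.0%), against 4.70% of all 28706 non-member loci on chromosomes. Such loci stood beside 26 members. A further 46 adjacent loci were above 0 and below 1 FPKM in WT, and 21 of these reached 1 FPKM or more in OE18 (45.7%), against 29.7% of the 7170 such loci on chromosomes. With the loci without WT reads included, which as non-members are kept almost entirely below 1 FPKM in OE18 by the rule, it was 21 of 73 adjacent loci (28.8%), against 25% of 8518 non-member loci on chromosomes. No test was made of these shares. Every member is itself without WT reads, and the shares beside other such loci are not given. Whether the shares are particular to the members is therefore not known.

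The members' own calls follow from the rule and carry no separate information. Of the 99 members 77 passed the filter, which asked for 1 FPKM or more in 3 of the 9 libraries, and 22 did not. All 77 were called higher in OE18 than in WT by limma at an adjusted p under 0.05, and all 77 higher in OE18 than in OE14. The backgrounds are 41.6% called higher in OE18 against WT and 38.8% called higher in OE18 against OE14. In OE14 against WT, limma called 4 of the 77, all higher in OE14, where the background is 31.9% called higher and 52.8% called in either direction. That count was 19 with a pseudocount of 0.1 FPKM, and 2 without any single WT library or without OE14 replicate 1 or 2. The rule bounds both OE14 and WT, so nothing is read from these counts, and the 3 comparisons share libraries.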

How the data were processed

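Transcript levels came as 1 table of FPKM values deposited by the authors, 1 column per library for 9 libraries. Tools listed in the submitters' processing notes are HISAT2 2.1.0 and Bowtie2 2.2.3. The read counter, its strand setting, the genome build with its annotation, and how shared reads were treated are each not given in the sources used here. No column was left unused.

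Reads, lengths and library totals were recovered as whole-number solutions of the FPKM formula, within 0.0001 reads for all 29764 loci. A length and its reads can come out too small where they share a factor, and 0.0475% to 0.0723% of each total was not found in the loci. The chromosome and order of loci were read from the IDs.

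The test used R 4.3.3 and limma 3.58.1 on log2(FPKM + 1), for genes at 1 FPKM or more in 3 of 9 libraries or more. It was 1 two-sided fit over all libraries with a variance trend and Benjamini-Hochberg adjustment. This scale understates changes of low values. The fit and the recovery were tested on simulated data. P-values measure the spread between libraries, which are described as biological replicates but may differ for technical reasons. With 1 line per level of overexpression, they do not measure the spread between independent lines.

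The members, the lists and the tests were chosen with earlier results of these data known. Without gene names, the 2 members with the highest OE18 mean were named. Other members are identified by chromosome and length, some chosen after their values were seen. Planned comparisons with related proteins, promoter motifs and marker genes needed an annotation and were not run. Alternatives were other pseudocounts, filters and scalings, voom on recovered reads, and leaving out libraries.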

Additional observations from a re-analysis of the deposited data

How the results depend on the processing

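The number of members depends on the thresholds. It was 99 by the rule, 172 with 0.5 FPKM in place of 1 for both means, 52 with 2 FPKM for the OE18 mean, 77 with every OE18 library at 1 FPKM or more, and 31 with no read allowed in OE14. Rescaling the values of each library to the same fixed sum, as in TPM, gave 161. The FPKM of the libraries summed to 521892 to 563135, less than that fixed sum. The rescaling therefore raised all values while the cut stayed at 1, much like a lower FPKM threshold. The count of 161 thus cannot be read as an effect of scaling between libraries. Leaving out each library in turn gave 94 to 136 members. The 3 highest counts came from leaving out a WT library, since loci whose WT reads lay in that library then pass. Requiring reads in all 3 OE14 libraries gave 20 members with OE14 signal in place of 68.

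Members called in OE14 against WT were 4 with a pseudocount of 1 FPKM, 8 with 0.5, 19 with 0.1, and 16 with voom on recovered reads. They were 2 when any single WT library or OE14 replicate 1 or 2 was left out, and 4 without OE14 replicate 3. Counts of members called in OE18 against WT and against OE14 stayed at 77 under every scaling, pseudocount and voom, and were 99 without the filter. They also stayed at 77 when any library of the genotypes compared was left out. The rule and the filter lead to these calls, so the constant count says nothing about robustness. Backgrounds under these alternatives are not given here. Neighbour loci called in OE18 against WT ranged from 139 to 148, those higher from 70 to 79 and those lower from 62 to 78. Quantile normalization, with 70 higher and 78 lower, turned the balance, and the background under it is not given here.

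Same-numbered OE18 and OE14 libraries share only a number: the correlation of their deviations was 0.10, 0.06 and -0.02, and OE18 replicates 2 and 3 correlated best with another number. With the replicate block over these 6 libraries 77 members were called in OE18 against OE14. In the same libraries without it 77 were called too, a fit added after seeing the data. Both counts again follow from the rule. The WT columns carry no replicate number, so no block could be fitted with WT. Depth limits all statements on absence, since 3 reads over the WT libraries equal 0.0489 FPKM for the strongest member. The alternatives for the members' closest relatives and for promoter motifs were not run, since both needed protein and promoter sequences.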
